A study of Mus musculus with 11 samples.

Results

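The genes described here are 10 genes of purinergic signalling and adenine nucleotide metabolism, of 20404 genes tested. They were chosen by name for their function. They comprise the receptors P2rx7, P2rx4 and Adora2a, the ecto-enzymes Entpd1, Nt5e, Cd38 and Art2b, and the enzymes Ada, Ampd1 and Ampd3, and all 10 were measured, by 21 probe sets in all. The cells were splenic CD4 T cells of mice, and their RNA was hybridised to 11 oligonucleotide arrays. Innate memory phenotype (IMP) cells were gated as CD44 high, and naive cells as CD44 low, among other surface markers. The labels name each array a separate biological sample, and the mice were female C57BL/6.

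WM IMP cells (3 arrays) came from lethally irradiated CD45.2+ hosts lacking MHC class II (MHCII-/-) that had received CD45.1+ wild-type marrow, and were gated on CD45.1. WT IMP cells (2 arrays) came from unmanipulated wild-type mice at 8 weeks of age. MW naive cells (3 arrays) came from the reverse chimeras, in which CD45.2+ MHCII-/- marrow had been given to lethally irradiated wild-type hosts, and were gated on CD45.2. The labels give these hosts as CD45.1+ in the protocol and genotype and as CD45.2+ in the source name, and in the second case the gate would also have held host cells. WT naive cells (3 arrays) came from the same kind of unmanipulated mice as WT IMP cells. Chimeras were used 8 weeks after transplantation. No group paired the marrow of one chimera with the cell type of the other, so the comparison of WM IMP with MW naive differs in cell type, marrow and host at once.

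Cells release ATP and NAD+ when they are activated, stressed or damaged, and P2X receptors on neighbouring cells open in response to ATP. CD39 (Entpd1) and CD73 (Nt5e) convert extracellular ATP through AMP to adenosine, which acts through receptors such as that of Adora2a that raise cyclic AMP and restrain T cells. On mouse T cells, ART2.2 (Art2b) uses extracellular NAD+ to modify P2X7, which opens the channel and can lead to cell death, and CD38 consumes the same NAD+.

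In the deposited log2 values the 3 WT naive arrays average 0 for each gene, so a value of 1 stands for a level 2-fold above that mean, and the level of a gene itself is not given. Over all genes the arrays had medians between -0.02 and 0.05. Control probe sets for poly-A RNA were high in 4 arrays (3.89 to 6.12), namely WM IMP replicate 2, WT IMP replicate 1, MW naive replicate 3 and WT naive replicate 1, and lay between -2.08 and -1.60 in the other 7. The 5′ minus 3′ difference of the Gapdh controls, a sign of RNA or labelling quality, was at 0.56, -2.71 and -1.69 in WM IMP, at -4.23 and -0.27 in WT IMP, at -4.22, -3.50 and -1.38 in MW naive and at 0.02, -0.42 and 0.41 in WT naive. It thus separated MW naive from WT naive arrays without overlap. The mean of the hybridization controls lay between 1.69 and 3.33 in WM IMP, at 0.49 and 0.46 in WT IMP, between 1.05 and 1.48 in MW naive and between -0.50 and 0.61 in WT naive, so that every chimera array was above every array of unmanipulated mice. Of 10 CD4 T cell identity genes, such as Cd3e and Cd4, limma called 0 (adjusted p under 0.05) in either IMP against naive comparison. At an unadjusted p under 0.05 there was 1 in WM IMP against MW naive and 3 in WT IMP against WT naive. The share of all genes at that threshold was not counted in any comparison. Counts at an unadjusted p, here and below, therefore have no background beside them. In MW naive against WT naive, 2 (Cd2 and Cd5) were called and lower, and 7 had an unadjusted p under 0.05. Their median there was -0.44, against 0.05 for all genes, with Cd4 at -1.13 ± 0.33 (adjusted p = 0.109) and Lck at 0.30 ± 0.18. The mean of the list lay between -0.66 and -0.41 in chimera arrays and between -0.32 and 0.07 in arrays of unmanipulated mice.

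Genes were called at an adjusted p under 0.05 in limma, adjusted over all 20404 genes. In WT IMP against WT naive cells, 5 of the 10 genes were called, with 4 higher (Entpd1, P2rx7, Cd38 and Nt5e) and 1 lower (Ampd1), against 7.66% of all genes (5.31% higher and 2.35% lower). In WM IMP against MW naive cells, 6 were called, with 5 higher (P2rx7, Cd38, Entpd1, Art2b and Nt5e) and 1 lower (Ampd1), against 13.1% of all genes (6.46% higher and 6.61% lower). The median log2 difference of the 10 genes was 0.19 in the unmanipulated mice and 0.32 in the chimeras, and that of all genes was -0.01 and -0.02. P2rx4, Adora2a, Ada and Ampd3 were called in neither comparison. In sorted bulk cells, fewer cells of a type and less RNA per cell cannot be told apart.

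**Figure D1:**
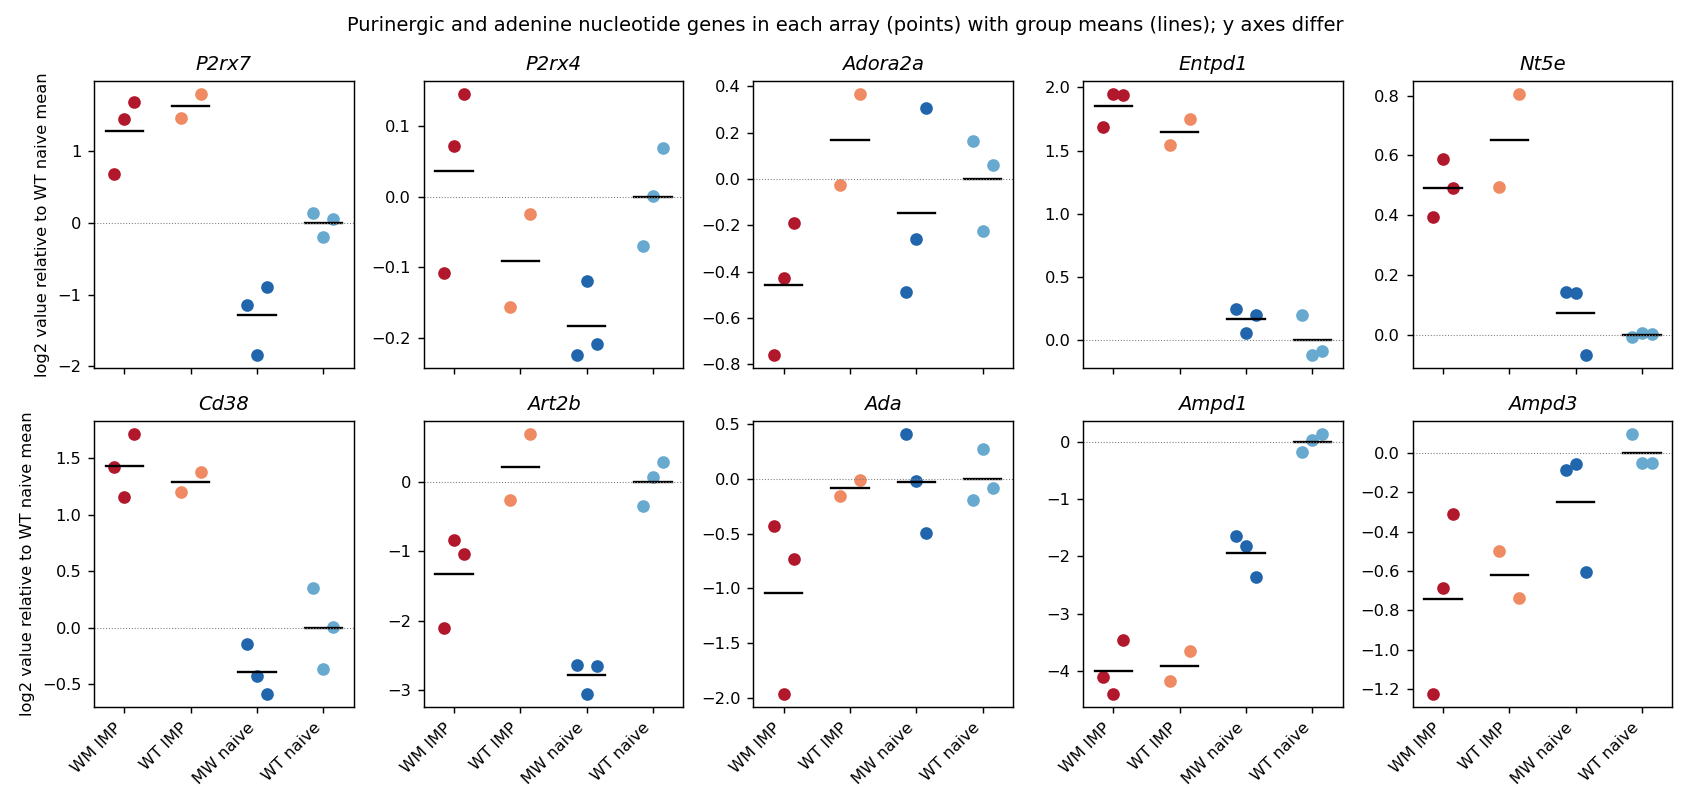
Log2 value of each of the 10 genes with the WT naive arrays averaging 0 (y axis, a separate scale per gene) in each array (points) of WM IMP, WT IMP, MW naive and WT naive cells, with group means as bars. Entpd1 and Cd38 were above every naive array in every IMP array, Ampd1 stepped down in MW naive and again in IMP arrays, and Art2b was lowest in MW naive arrays.

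The starts of the genes that moved most are given here from RefSeq (GRCm38.p6), as 250 bases before to 50 after an annotated start, in the 5′ to 3′ direction of the gene. RefSeq promoters matched 8 of the 10 genes, and Ampd1 and Adora2a had no entry. The genes shown were chosen after their values had been seen: P2rx7 and Art2b, both lower in MW naive cells and higher in WM IMP than in MW naive cells, and Cd38 and Entpd1, which were not called between the naive groups. The window of P2rx7 is the first of 2 annotated starts (chr5:122643677-122643976, plus strand), that of Art2b lies at chr7:101581112-101581411 (minus strand), that of Cd38 at chr5:43868559-43868858 (plus strand) and that of Entpd1, the first of 2 starts, at chr19:40612116-40612415 (plus strand). Capitals mark matches to any of 8 motifs searched on both strands.
P2rx7: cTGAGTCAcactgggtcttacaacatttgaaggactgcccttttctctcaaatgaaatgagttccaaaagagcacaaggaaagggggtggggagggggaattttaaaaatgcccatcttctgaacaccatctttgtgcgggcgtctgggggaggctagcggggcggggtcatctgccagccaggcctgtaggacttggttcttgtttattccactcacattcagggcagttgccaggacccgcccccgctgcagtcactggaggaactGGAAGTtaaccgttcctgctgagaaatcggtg
Art2b: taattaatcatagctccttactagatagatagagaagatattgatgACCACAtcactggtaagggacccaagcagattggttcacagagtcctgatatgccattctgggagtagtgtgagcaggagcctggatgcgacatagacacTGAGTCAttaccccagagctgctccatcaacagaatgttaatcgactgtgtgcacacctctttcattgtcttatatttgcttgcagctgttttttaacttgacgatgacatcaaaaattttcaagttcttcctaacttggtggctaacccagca
Cd38: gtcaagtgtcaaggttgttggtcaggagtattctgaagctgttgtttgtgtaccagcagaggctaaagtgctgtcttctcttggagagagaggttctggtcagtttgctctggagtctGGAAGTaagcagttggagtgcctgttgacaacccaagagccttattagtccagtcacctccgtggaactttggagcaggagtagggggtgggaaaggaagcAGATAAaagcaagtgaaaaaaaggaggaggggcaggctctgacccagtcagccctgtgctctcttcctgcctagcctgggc
Entpd1: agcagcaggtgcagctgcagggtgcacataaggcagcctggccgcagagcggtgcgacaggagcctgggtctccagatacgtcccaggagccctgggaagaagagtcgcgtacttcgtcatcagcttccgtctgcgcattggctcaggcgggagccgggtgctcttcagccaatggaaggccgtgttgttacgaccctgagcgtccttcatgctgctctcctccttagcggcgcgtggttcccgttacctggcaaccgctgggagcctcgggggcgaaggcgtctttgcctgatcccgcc

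The motifs were TGTGGT for the RUNX family, GGAAGT for ETS factors, TGANTCA for AP-1, CTTTGAA for TCF and LEF factors, GGTGTGA for T-box factors, AGATAA for the family of GATA factors, GGGTGTG for KLF factors and CACGTG for E-box factors. The T-box and KLF motifs can overlap. P2rx7 and Art2b each held a TGANTCA, with its first base at position -249 of P2rx7 and -104 of Art2b relative to the start. This motif stood in 7.81% of the 32851 windows of all genes. Art2b also held TGTGGT on the opposite strand at -204 (in 16.8% of windows), and P2rx7 held GGAAGT at 18 (23.8%). Cd38 held GGAAGT at -132 and AGATAA at -31 (11.2%), and the first start of Entpd1 held none of the 8. The windows of Nt5e, P2rx4 and Ada also held none. Other annotated starts held other matches. The second start of P2rx7 held the ETS, TCF and LEF, T-box, GATA and KLF motifs but not the AP-1 motif, and the second start of Entpd1 held the RUNX motif. Of the 3 starts of Ampd3, the second held the AP-1 and E-box motifs and the third the RUNX, ETS and GATA motifs. A match is a description of these letters and not evidence of binding.

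P2rx7, the ATP-gated channel on chromosome 5 (122643927 to 122692336, GRCm38.p6), was at 0.69, 1.45 and 1.69 in WM IMP, at 1.47 and 1.80 in WT IMP, at -1.14, -1.84 and -0.89 in MW naive and at 0.14, -0.20 and 0.05 in WT naive. Every IMP array was above every naive array, and every MW naive array was below every WT naive array. It was 5.94-fold higher in WM IMP than in MW naive (log2 difference 2.57 ± 0.28, SE; adjusted p = 8.95e-05) and 3.10-fold higher in WT IMP than in WT naive (1.63 ± 0.31, adjusted p = 0.00739). The order of group means was WT IMP (1.63 ± 0.23, SD, n = 2), WM IMP (1.28 ± 0.52, SD, n = 3), WT naive (0 by construction, SD 0.18, n = 3) and MW naive (-1.29 ± 0.49, SD, n = 3). The neighbours WT IMP and WM IMP overlapped and did not pass the test (difference of WM IMP from WT IMP -0.36 ± 0.31, adjusted p = 0.564). Without WT IMP replicate 2, P2rx7 was at 1.47 ± 0.41 in WT IMP against WT naive (adjusted p = 0.0797), and among the 7 arrays with low poly-A controls it was at 1.87 ± 0.46 (adjusted p = 0.132). For every gene, both of these fits leave WT IMP with 1 array, which is assumed to vary like the other groups. The increase in WM IMP was called in all 21 fits tried, with log2 differences between 2.29 and 3.64.

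The 3 probe sets of P2rx7 did not move alike. Over all 37504 probe sets tested by themselves, 10.2% were called in WM IMP against MW naive, 5.37% in WT IMP against WT naive and 3.4% in MW naive against WT naive. Probe set 1439787_at was at 1.16, 1.17 and 1.42 in WM IMP, at 1.40 and 2.48 in WT IMP, at -2.37, -3.0 and -1.79 in MW naive and at -0.06, 0.08 and -0.02 in WT naive. Probe set 1419853_a_at followed the same order of groups, with differences of 3.50 ± 0.32 for WM IMP against MW naive and 2.48 ± 0.36 for WT IMP against WT naive. The third, 1422218_at, was at 0.57 ± 0.37 and 0.48 ± 0.41 in the same comparisons and passed neither test, with its arrays overlapping. The mean over probe sets therefore lay below the difference that 2 of the 3 showed.

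P2rx4 encodes a second ATP-gated channel and lies beside P2rx7 on chromosome 5 (122707518 to 122729739). As the mean of 4 probe sets it was at -0.11, 0.07 and 0.14 in WM IMP, at -0.16 and -0.03 in WT IMP, at -0.22, -0.12 and -0.21 in MW naive and at -0.07, 0.00 and 0.07 in WT naive. The difference was 0.22 ± 0.11 for WM IMP against MW naive (95% interval -0.03 to 0.47, adjusted p = 0.258) and -0.09 ± 0.13 for WT IMP against WT naive (-0.37 to 0.19, adjusted p = 0.911). Of its 4 probe sets, 0 were called in these comparisons, and the 1 with an unadjusted p under 0.05, 1425525_a_at in WM IMP against MW naive, was at 0.49 ± 0.15 (adjusted p = 0.0569). The probe sets moved apart in the other comparisons. Probe set 1452527_a_at ranged from -1.35 to 0.37 over the arrays and was at -0.80 ± 0.26 in MW naive against WT naive (unadjusted p = 0.0113, adjusted p = 0.136), whereas 1446429_at was at 0.63 ± 0.21 in WM IMP against WT IMP (unadjusted p = 0.0102, adjusted p = 0.133).

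Adora2a, which encodes an adenosine receptor that raises cyclic AMP (chromosome 10, 75316877 to 75334792), was at -0.76, -0.43 and -0.19 in WM IMP, at -0.03 and 0.37 in WT IMP, at -0.49, -0.26 and 0.31 in MW naive and at 0.17, -0.22 and 0.06 in WT naive. The IMP and naive arrays overlapped in both settings. The difference was -0.31 ± 0.22 in WM IMP against MW naive (95% interval -0.80 to 0.17, adjusted p = 0.424) and 0.17 ± 0.25 in WT IMP against WT naive (-0.37 to 0.71, adjusted p = 0.919). WM IMP arrays lay below both WT IMP arrays by 0.63 ± 0.25 on average, a difference that did not pass after adjustment (adjusted p = 0.223).

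Entpd1, which encodes CD39, the enzyme that removes phosphates from extracellular ATP and ADP (chromosome 19, 40612366 to 40741602), was at 1.68, 1.95 and 1.94 in WM IMP, at 1.54 and 1.75 in WT IMP, at 0.25, 0.06 and 0.20 in MW naive and at 0.20, -0.11 and -0.08 in WT naive. Naive arrays of both kinds overlapped, IMP arrays of both kinds overlapped, and a gap of more than 1 log2 unit separated naive from IMP. Entpd1 was 3.22-fold higher in WM IMP than in MW naive (1.69 ± 0.13, adjusted p = 8.27e-06) and 3.13-fold higher in WT IMP than in WT naive (1.65 ± 0.15, adjusted p = 4.43e-05). All 3 of its probe sets were called in both comparisons, with log2 differences between 1.14 and 2.39. Both increases were called in all 21 fits tried. The difference between them was 0.04 ± 0.20 (95% interval -0.41 to 0.48), so the increase was alike in chimeras and unmanipulated mice to within that interval.

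Nt5e encodes CD73, which converts AMP to adenosine (chromosome 9, 88327609 to 88372089), and as the mean of 3 probe sets it was at 0.39, 0.59 and 0.49 in WM IMP, at 0.50 and 0.81 in WT IMP, at 0.14, 0.14 and -0.07 in MW naive and between -0.01 and 0.01 in WT naive. Every IMP array was above every naive array. The difference was 0.42 ± 0.12 in WM IMP against MW naive (adjusted p = 0.0459) and 0.65 ± 0.14 in WT IMP against WT naive (adjusted p = 0.0135). The difference lay in 1 of the probe sets, 1428547_at, which was at 1.24, 1.39 and 1.48 in WM IMP, at 1.12 and 2.24 in WT IMP, at -0.35, -0.07 and -0.52 in MW naive and at -0.34, 0.30 and 0.04 in WT naive. For that probe set the differences were 1.68 ± 0.27 in WM IMP against MW naive (adjusted p = 0.00179) and 1.68 ± 0.30 in WT IMP against WT naive (adjusted p = 0.00572), while 1422974_at and 1459023_at lay between -0.29 and 0.28 and were not called. The call of the mean in the chimeras was fragile and held in 8 of 21 fits, with adjusted p up to 0.322. It was lost when 1 array was left out, for each of WM IMP replicates 2 and 3 (adjusted p = 0.105 and 0.0866), MW naive replicates 1, 2 and 3 (0.0817, 0.0853 and 0.135) and WT naive replicates 1, 2 and 3 (0.0739, 0.0643 and 0.0727). In the unmanipulated mice it was lost with the Gapdh 5′ minus 3′ difference as a covariate (adjusted p = 0.0552). With a single WT IMP array, the difference was 0.50 ± 0.17 without WT IMP replicate 2 (adjusted p = 0.153) and 0.80 ± 0.19 among the 7 arrays with low poly-A controls (adjusted p = 0.114).

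**Figure D2:**
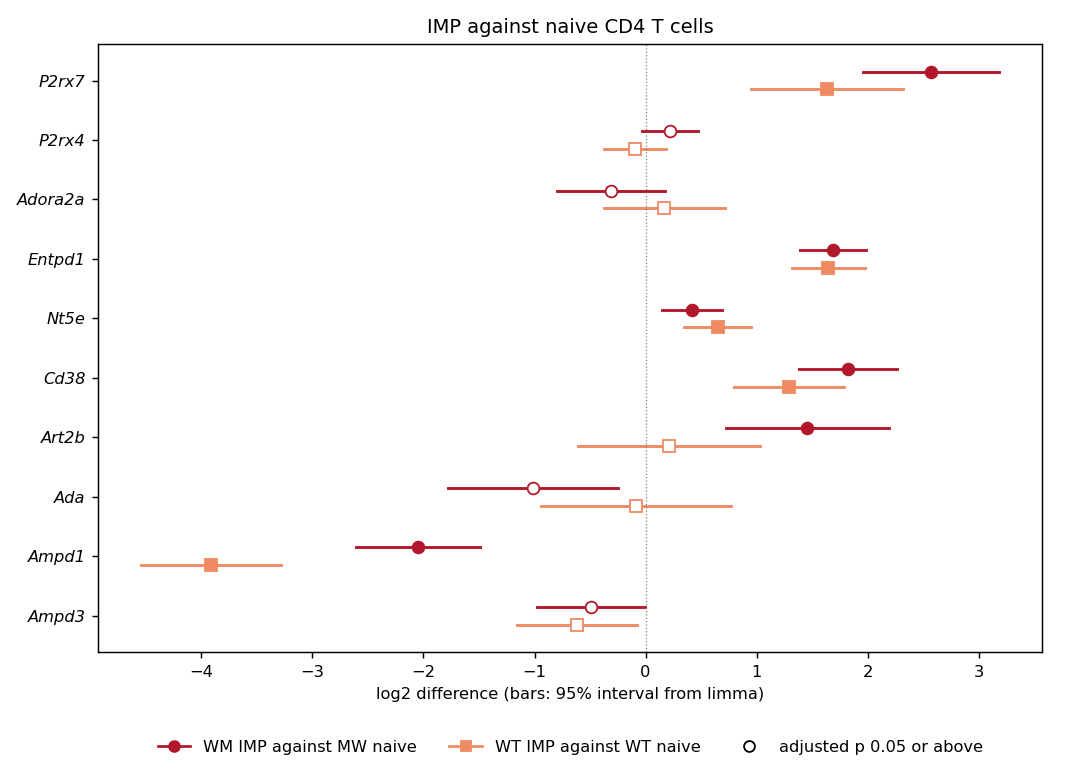
Log2 difference (x axis) with its 95% interval from limma for each of the 10 genes in WM IMP against MW naive cells (circles, above) and WT IMP against WT naive cells (squares, below), with open symbols at an adjusted p of 0.05 or above. P2rx7, Entpd1, Nt5e and Cd38 lay to the right of 0 in both, Ampd1 far to the left, and the intervals of P2rx4, Adora2a and Ada in WT IMP against WT naive all held 0.

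Cd38, the ecto-enzyme that consumes NAD+ (chromosome 5, 43868809 to 43912374), was at 1.42, 1.16 and 1.72 in WM IMP, at 1.20 and 1.38 in WT IMP, at -0.15, -0.43 and -0.59 in MW naive and at 0.35, -0.36 and 0.01 in WT naive. Every IMP array was above every naive array, and the naive groups overlapped. Cd38 was 3.54-fold higher in WM IMP than in MW naive (1.82 ± 0.20, adjusted p = 0.000105) and 2.45-fold higher in WT IMP than in WT naive (1.29 ± 0.23, adjusted p = 0.00429). The increase in WM IMP was called in all 21 fits, and that in WT IMP in 20. The other fit, without WT IMP replicate 2, left 1 WT IMP array and gave a difference of nearly the same size (1.20 ± 0.30, adjusted p = 0.0515). Again 1 of its 2 probe sets carried the difference. Probe set 1433741_at was at 2.92, 2.32 and 2.84 in WM IMP, at 2.35 and 2.71 in WT IMP, at -0.72, -1.22 and -1.27 in MW naive and at 0.63, -0.71 and 0.08 in WT naive, which gave 13.6-fold (3.76 ± 0.31) in WM IMP against MW naive and 5.78-fold (2.53 ± 0.34) in WT IMP against WT naive. Probe set 1450136_at was at -0.12 ± 0.19 and 0.05 ± 0.21 in the same comparisons. In the authors' deposited gene table, which summarises probe sets its own way, the difference of Cd38 was 3.59 in the chimeras and 2.29 in the unmanipulated mice.

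**Figure D3:**
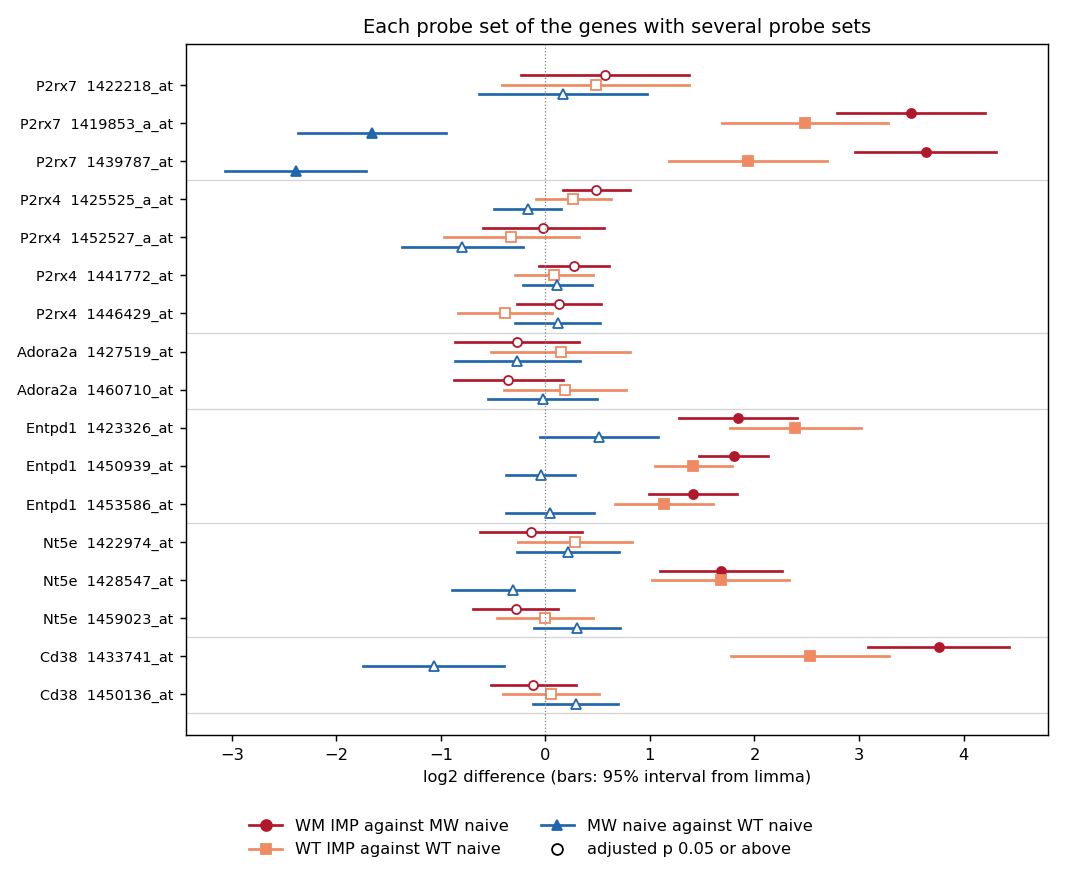
Log2 difference (x axis) with its 95% interval for each probe set of the genes that have several, in WM IMP against MW naive (circles), WT IMP against WT naive (squares) and MW naive against WT naive (triangles), with open symbols at an adjusted p of 0.05 or above. All 3 probe sets of Entpd1 were called in both comparisons of IMP with naive cells, whereas P2rx7, Nt5e and Cd38 each held at least 1 probe set called in both and 1 that was called in neither.

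Art2b encodes ART2.2, the ADP-ribosyltransferase that modifies P2X7, and lies on chromosome 7 (101575729 to 101585591). It was at -2.11, -0.84 and -1.04 in WM IMP, at -0.26 and 0.69 in WT IMP, at -2.64, -3.06 and -2.65 in MW naive and at -0.35, 0.07 and 0.28 in WT naive. Both chimera groups lay below both unmanipulated groups in every array, and WM IMP arrays lay above MW naive arrays. It was 2.75-fold higher in WM IMP than in MW naive (1.46 ± 0.33, adjusted p = 0.0141), and in WT IMP against WT naive it was at 0.21 ± 0.37 (95% interval -0.61 to 1.03, adjusted p = 0.947). The difference between these values, 1.24 ± 0.50, did not pass the test (adjusted p = 0.605). The call in the chimeras was lost without MW naive replicate 2 (1.32 ± 0.38, adjusted p = 0.0624) and among the 7 arrays with low poly-A controls (1.28 ± 0.35, adjusted p = 0.098). Art2a, a neighbour of the same family, is named Art2a-ps in the files, with the suffix of a pseudogene. Whether its RNA yields an enzyme was not tested. Art2a was at 1.96, 0.86 and 0.23 in WM IMP and at 0.52 and 1.15 in WT IMP. In MW naive it was at -0.37, -0.08 and -0.35, and in WT naive at 0.04, -0.06 and 0.02. Its difference was 1.28 ± 0.34 in WM IMP against MW naive (adjusted p = 0.0296) and 0.84 ± 0.38 in WT IMP against WT naive (adjusted p = 0.289). Art2a and Art2b were each read by 1 probe set, and signal shared between them cannot be told apart here.

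Ampd1, an isoform of AMP deaminase, which turns AMP into inosine monophosphate inside cells (chromosome 3, 103073897 to 103099720), had the largest differences of the 10 genes in unmanipulated mice. It was at -4.11, -4.41 and -3.46 in WM IMP, at -4.17 and -3.66 in WT IMP, at -1.66, -1.82 and -2.37 in MW naive and at -0.18, 0.04 and 0.14 in WT naive. The arrays formed 3 separate ranges, with WT naive highest, MW naive between and the overlapping IMP groups lowest. It was 4.14-fold lower in WM IMP than in MW naive (-2.05 ± 0.26, adjusted p = 0.000255) and 15.1-fold lower in WT IMP than in WT naive (-3.92 ± 0.29, adjusted p = 9.38e-06). Both calls held in all 21 fits. WM IMP and WT IMP differed by -0.08 ± 0.29 (95% interval -0.71 to 0.55), and the difference between both decreases was 1.87 ± 0.38, which did not pass over all genes (adjusted p = 0.164) and passed only when poly-A control level was a block (1.78 ± 0.26, adjusted p = 0.0473), 1 of 20 fits of that quantity.

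Ampd3, another isoform of AMP deaminase (chromosome 7, 110767790 to 110812409), was at -1.23, -0.69 and -0.31 in WM IMP, at -0.50 and -0.74 in WT IMP, at -0.08, -0.06 and -0.61 in MW naive and at 0.10, -0.05 and -0.05 in WT naive. Both WT IMP arrays were below every WT naive array, and WM IMP overlapped MW naive. The difference was -0.49 ± 0.22 in WM IMP against MW naive (adjusted p = 0.186) and -0.62 ± 0.25 in WT IMP against WT naive (adjusted p = 0.201). The difference in WT IMP passed in 3 of 21 fits, with array weights, with the Gapdh covariate and with the 2 groups alone (adjusted p = 0.0152, 0.0441 and 0.0218).

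Ada encodes adenosine deaminase, which turns adenosine into inosine (chromosome 2, 163726571 to 163750239). It was at -0.43, -1.97 and -0.73 in WM IMP, at -0.16 and -0.01 in WT IMP, at 0.41, -0.01 and -0.50 in MW naive and at -0.20, 0.28 and -0.08 in WT naive. WM IMP replicate 2 was the lowest of all arrays, and WM IMP replicate 1 overlapped the MW naive range. The difference was -1.01 ± 0.35 in WM IMP against MW naive (95% interval -1.78 to -0.24, adjusted p = 0.0848) and -0.08 ± 0.39 in WT IMP against WT naive (-0.94 to 0.77, adjusted p = 0.991). It passed in WM IMP without replicate 1 of that group (-1.32 ± 0.34, adjusted p = 0.0273), with array weights (adjusted p = 0.0238) and with poly-A control level as a block (adjusted p = 0.0232).

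The naive groups were compared to ask how naive cells of the chimeras differ from those of unmanipulated mice. In MW naive against WT naive cells, 3 of the 10 genes were called and all 3 were lower, namely Art2b, Ampd1 and P2rx7, against 2.72% of all genes (0.706% higher and 2.02% lower). The median of the 10 genes was -0.22, and that of all genes 0.05. Art2b was 6.89-fold lower (-2.78 ± 0.33, adjusted p = 0.00326), Ampd1 3.85-fold lower (-1.95 ± 0.26, adjusted p = 0.00388) and P2rx7 2.45-fold lower (-1.29 ± 0.28, adjusted p = 0.0377). The arrays of both groups were separate for each of the 3. The Gapdh 5′ minus 3′ difference also separated these groups, and with it as a covariate the differences kept their size and lost their calls, at -2.80 ± 0.46 for Art2b (adjusted p = 0.0607), -1.93 ± 0.35 for Ampd1 (adjusted p = 0.0736) and -1.29 ± 0.39 for P2rx7 (adjusted p = 0.283). Among the 7 arrays with low poly-A controls they were -3.02 ± 0.35, -1.82 ± 0.24 and -1.42 ± 0.37 (adjusted p = 0.0504, 0.0534 and 0.186, in the same order of genes). The hybridization controls and the mean of the CD4 T cell identity genes also separated these groups. Their part in these differences was not tested.

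The call of P2rx7 between the naive groups held in 13 of 21 fits, with differences between -2.39 and -1.02. It was lost without MW naive replicate 1 (-1.37 ± 0.33, adjusted p = 0.103), without MW naive replicate 2 (-1.02 ± 0.27, adjusted p = 0.138), and without WT naive replicates 1, 2 or 3 (adjusted p = 0.126, 0.0794 and 0.142). Its probe sets 1439787_at (-2.39 ± 0.31, adjusted p = 0.00487) and 1419853_a_at (-1.66 ± 0.32, adjusted p = 0.0209) were called, and 1422218_at was at 0.17 ± 0.37. Cd38 differed by -0.39 ± 0.20 (adjusted p = 0.384), with its probe set 1433741_at at -1.07 ± 0.31 (adjusted p = 0.0879). Entpd1, at 0.17 ± 0.13, and Nt5e, at 0.07 ± 0.12, were not called between the naive groups.

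In WM IMP against WT IMP cells, 0 of the 10 genes were called by limma, against 1.27% of all genes called. Before adjustment, 3 of the 10 had a p under 0.05, and the share of all genes at that threshold was not counted. Art2b was 2.91-fold lower in WM IMP (-1.54 ± 0.37, adjusted p = 0.0707), with every WM IMP array below both WT IMP arrays. It passed without WM IMP replicate 2 (-1.78 ± 0.38, adjusted p = 0.0323). Ada, at -0.96 ± 0.39 (adjusted p = 0.236), and Adora2a, at -0.63 ± 0.25, were the other 2. Entpd1, Nt5e, Cd38 and Ampd1 differed by between -0.16 and 0.21.

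The difference between the IMP minus naive change in chimeras and that in unmanipulated mice was called by limma for 0 of the 10 genes. It was called for 0.0588% of all genes. Of the 10, 3 had an unadjusted p under 0.05, and the share of all genes at that threshold was not counted. Ampd1 (1.87), Art2b (1.24) and P2rx7 (0.93) were these 3, with unadjusted p of 0.000475, 0.0302 and 0.0475. For all 3 the MW naive value lay below the WT naive value, and the same MW naive arrays enter this difference and the comparison of the naive groups.

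**Figure D4:**
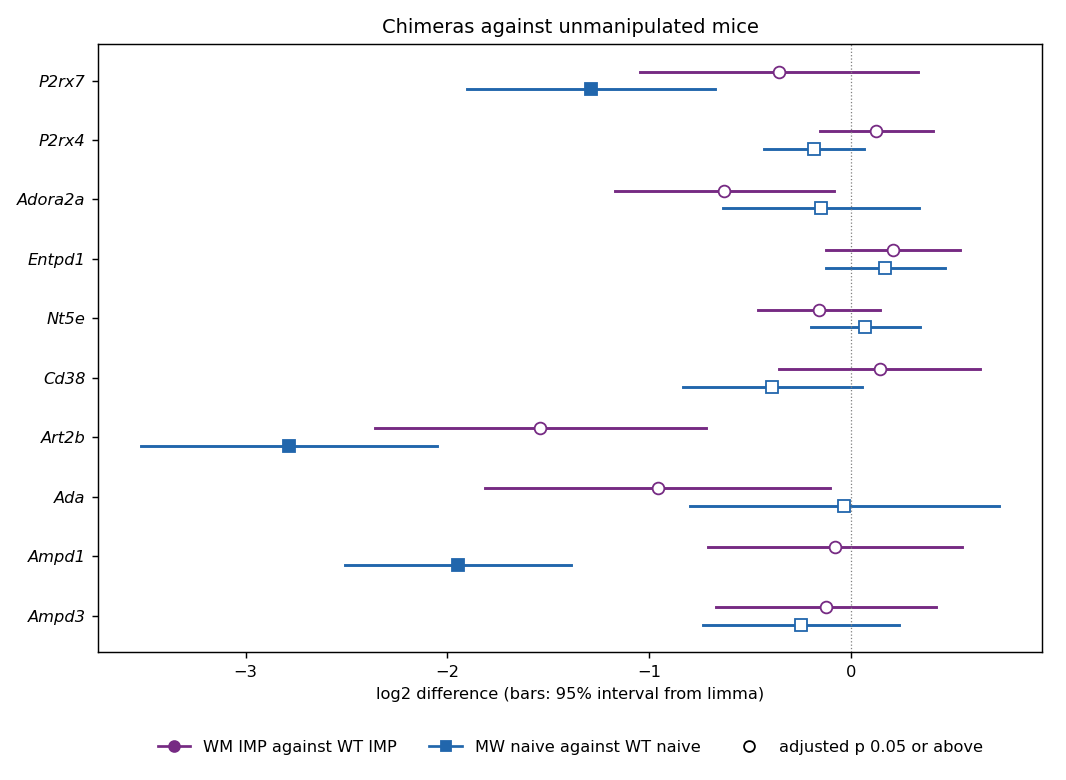
Log2 difference (x axis) with its 95% interval for each of the 10 genes in WM IMP against WT IMP cells (circles, above) and MW naive against WT naive cells (squares, below), with open symbols at an adjusted p of 0.05 or above. P2rx7, Art2b and Ampd1 lay far to the left in the naive comparison, and the interval of Ampd1 held 0 in the IMP comparison.

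Among 110 other genes in 8 lists of the pathway, 26 were called in WM IMP against MW naive (11 higher and 15 lower, median -0.01). This was 23.6%, against 13.1% of all genes. In WT IMP against WT naive, 14 were called (5 higher and 9 lower, median 0.02), or 12.7%, against 7.66% of all genes. Of 13 other ATP and nucleotide receptors, 3 rose in each comparison. P2ry6, a receptor for UDP, was 2.50 ± 0.33 higher in WM IMP than in MW naive (adjusted p = 0.000385) and 3.40 ± 0.37 higher in WT IMP than in WT naive (adjusted p = 0.000145), and P2ry13, a receptor for ADP, was 1.19 ± 0.26 and 2.13 ± 0.29 higher. P2rx5 rose in WM IMP (0.74 ± 0.22, adjusted p = 0.0457) and P2ry14, a receptor for UDP-glucose, in WT IMP (2.91 ± 0.52, adjusted p = 0.00461). Of 6 other adenosine receptors and nucleoside transporters, 0 were called in any comparison, and 0 had an unadjusted p under 0.05 in either comparison of IMP with naive cells. The largest of them in the comparisons of IMP with naive cells was the transporter Slc29a1, at 0.57 ± 0.30 in WT IMP against WT naive (adjusted p = 0.392).

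Of 14 genes of ATP release and of the P2X7 response, 2 rose and 5 fell in WM IMP against MW naive, and 1 rose and 4 fell in WT IMP against WT naive. Casp1, the inflammasome protease, was 3.86 ± 0.15 higher in WM IMP than in MW naive (adjusted p = 6.78e-08) and 4.21 ± 0.16 higher in WT IMP than in WT naive (adjusted p = 1.49e-07). Nlrp3, the inflammasome sensor, rose in WM IMP (1.74 ± 0.24, adjusted p = 0.000586). Slc17a9, the vesicular ATP transporter, was at -0.87 ± 0.20 in WM IMP against MW naive and -1.27 ± 0.22 in WT IMP against WT naive, and the volume-regulated channel gene Lrrc8a was at -1.35 ± 0.16 and -0.69 ± 0.18.

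Of 18 genes listed with AMP synthesis and adenylate kinases, not all of them enzymes of those steps, 1 rose and 7 fell in WM IMP against MW naive. In WT IMP against WT naive, 1 rose and 2 fell, the latter Impdh1 and Impdh2. Impdh2, the enzyme that leads inosine monophosphate to guanine nucleotides, was at -0.97 ± 0.13 in WM IMP against MW naive (adjusted p = 0.000338) and -0.51 ± 0.14 in WT IMP against WT naive (adjusted p = 0.0499). Adssl1, the isoform of adenylosuccinate synthase known from muscle, was the gene that rose in both, by 0.74 ± 0.19 and 2.01 ± 0.21, and was 1.44 log2 units lower in WM IMP than in WT IMP (-1.44 ± 0.21, adjusted p = 0.0127). Of 13 other genes listed with adenosine and AMP conversion, not all of them enzymes of that step, 2 rose in WM IMP against MW naive. These were Xdh (1.51 ± 0.26) and Dpp4 (1.03 ± 0.24), and 0 were called in WT IMP against WT naive (2 at an unadjusted p under 0.05).

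Among 12 other genes listed by family with the ecto-nucleotidases, not all at the cell surface, some were called in WM IMP against MW naive. Enpp2 (0.52 ± 0.15) rose and Entpd5 (-0.98 ± 0.17) fell, and 0 were called in WT IMP against WT naive (5 at an unadjusted p under 0.05). Of 17 genes of cyclic AMP signalling, 1 rose and 1 fell in WM IMP against MW naive, and 0 rose and 2 fell in WT IMP against WT naive. The phosphodiesterase gene Pde7a rose in WM IMP (0.84 ± 0.17, adjusted p = 0.00654) and Pde4b, another, fell in WT IMP (-0.61 ± 0.16, adjusted p = 0.0416). The cyclase gene Adcy6 fell in both, at -2.56 ± 0.22 in WM IMP against MW naive (adjusted p = 1.22e-05) and -2.41 ± 0.24 in WT IMP against WT naive (adjusted p = 8.75e-05). Of 17 other genes of ADP-ribosylation and NAD metabolism, Art2a rose and Nadsyn1 fell in WM IMP, and Art4 fell in WT IMP (-1.22 ± 0.23, adjusted p = 0.00679). In MW naive against WT naive, 4 of the 110 were called (3.64%, against 2.72% of all genes). Casp1 (0.83 ± 0.15) and Entpd4 (0.65 ± 0.13) were higher, and Adss (-1.34 ± 0.29) and Pde7a (-0.85 ± 0.17) were lower. In WM IMP against WT IMP, 3 were called (2.73%, against 1.27% of all genes) and all were lower, Adssl1 and Nadsyn1 among them.

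**Figure D5:**
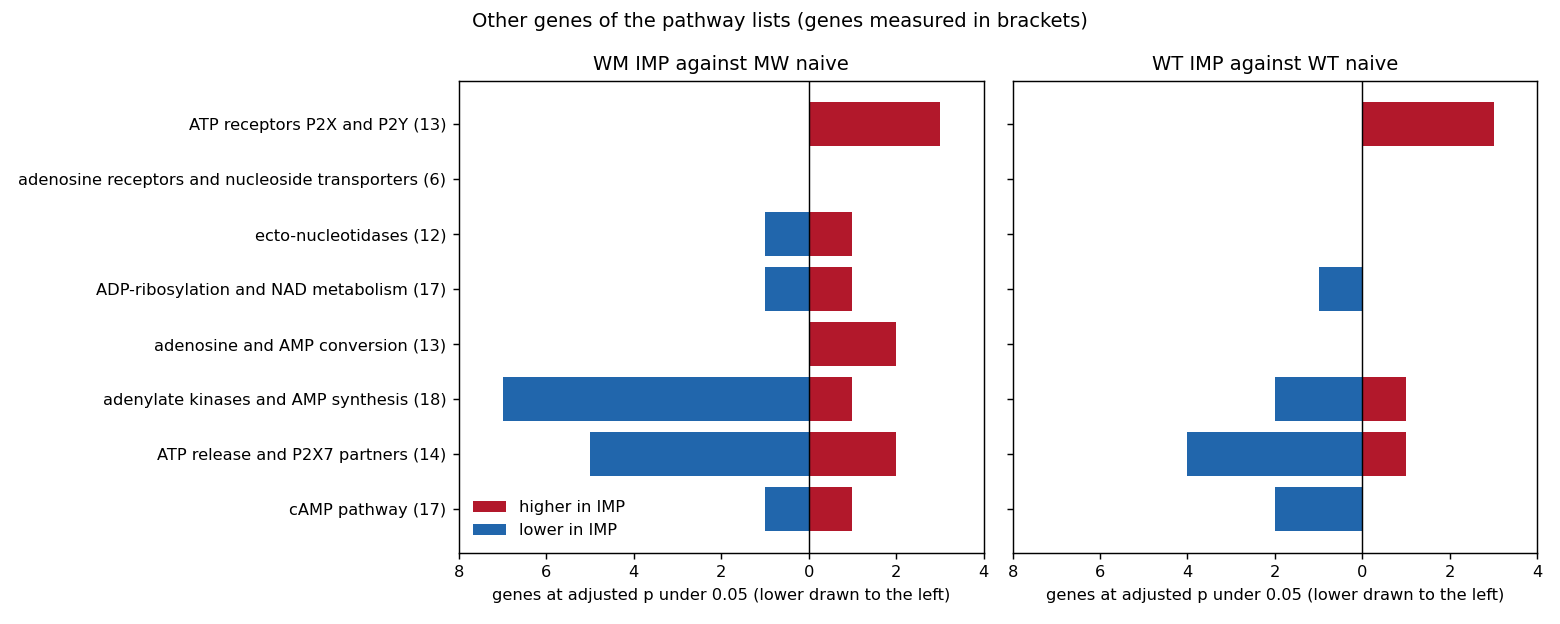
Number of other genes of each of 8 pathway lists (rows, with the genes measured in brackets) at an adjusted p under 0.05, drawn to the right where higher and to the left where lower, in WM IMP against MW naive cells (left panel) and WT IMP against WT naive cells (right panel). The list of adenylate kinases and AMP synthesis showed 7 lower genes in the chimeras and 2 in unmanipulated mice. Those 2 were Impdh1 and Impdh2, and Impdh2 leads to guanine nucleotides. The adenosine receptor list showed 0 in both.

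Markers of other cells moved with these comparisons. Of 9 dendritic cell markers, 7 were higher in WM IMP than in MW naive and 7 in WT IMP than in WT naive, and their mean lay between 2.67 and 3.01 in WM IMP, 2.39 and 2.60 in WT IMP, -1.37 and -0.78 in MW naive and -0.28 and 0.40 in WT naive. That list includes class II genes, which the MHCII-/- marrow of MW mice lacks. Of 8 plasmacytoid dendritic cell markers, 7 were higher in WM IMP than in MW naive (mean 1.38 to 2.65, against -0.30 to -0.10) and 8 in WT IMP than in WT naive (3.06 to 3.08, against -0.20 to 0.29). Of 12 monocyte and macrophage markers, 5 were higher in WM IMP than in MW naive (mean 0.63 to 1.13, against -0.79 to -0.50) and 7 in WT IMP than in WT naive (1.41 to 1.51, against -0.20 to 0.27). Of 10 B cell markers, 4 were higher in WM IMP than in MW naive (mean 0.53 to 2.16, against -0.69 to -0.02) and 0 in WT IMP than in WT naive (1 at an unadjusted p under 0.05). Of 6 NK cell markers, 4 and 3 were higher, and of 5 plasma cell markers, 1 and 3, in the same order. Eomes and Klrd1 of the first list and Prdm1 and Xbp1 of the second are also known from T cells. Of the neutrophil, erythroid and platelet markers, 0 were called in these comparisons, with 0, 2 and 1 at an unadjusted p under 0.05 in WM IMP against MW naive and 0 in WT IMP against WT naive. Of 2 CD8 T cell markers, Cd8a was higher in WM IMP than in MW naive (1.81 ± 0.27, adjusted p = 0.000938) and Cd8b1 was at 0.47 ± 0.33, and 0 were called in WT IMP against WT naive, with 0 at an unadjusted p under 0.05.

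In MW naive against WT naive, some markers of other cells were lower. Of 9 dendritic cell markers 3 were lower, the class II genes H2-Aa (-3.08 ± 0.38), H2-Ab1 (-3.07 ± 0.29) and H2-Eb1 (-3.28 ± 0.37). Of 12 monocyte and macrophage markers 1 was lower, Lyz2 (-1.92 ± 0.23, adjusted p = 0.00326), while 8 had an unadjusted p under 0.05 and the median was -0.56. The mean of the monocyte and macrophage list lay between -0.79 and -0.50 in MW naive and between -0.20 and 0.27 in WT naive, without overlap. Of 4 platelet markers, Itga2b was higher (0.62 ± 0.14, adjusted p = 0.041). No marker of the CD8 T cell, B cell, plasma cell, plasmacytoid dendritic cell, neutrophil, NK cell or erythroid lists was called, with an unadjusted p under 0.05 for 1 CD8 T cell marker and 3 NK cell markers. Entpd1, P2rx7, Cd38, P2ry6, P2ry13 and Casp1 are also known from such cells, and the part of these cells in the differences was not tested. The labels give the same range of purity, 92 to 99%, for every array.

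Regulatory and follicular helper T cells are themselves CD4 T cells that express CD39 or CD73. Of 9 regulatory T cell markers, 8 were higher and 1 lower in WM IMP than in MW naive (mean 1.54 to 1.81, against -0.50 to -0.19), and 7 were higher in WT IMP than in WT naive (1.54 to 1.80, against -0.05 to 0.06). Foxp3 was 3.37 ± 0.18 higher in WM IMP than in MW naive, 1.87 ± 0.20 higher in WT IMP than in WT naive and 0.82 ± 0.18 log2 units lower in MW naive than in WT naive (-0.82), where Il2ra was also lower (-0.82 ± 0.19, adjusted p = 0.0449). Of 8 follicular helper markers, 7 were higher in each comparison of IMP with naive cells. Their part in the values of Entpd1, Nt5e and Cd38 was not tested.

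For the genes called in a comparison of IMP with naive cells, the genes with the most alike pattern were those with the smallest root mean square difference of the 11 array values. Those of Entpd1 were Cyp27a1 (0.13), Anxa1 (0.16) and Ptpro (0.18), against a root mean square of 1.21 for Entpd1 itself. Those of P2rx7 were Cd86 (0.33), Treml4 (0.39) and Chn2 (0.39), against 1.22 for P2rx7. Cd38 was closest to Ctsz (0.22), Fscn1 (0.22) and Marchf1 (0.23), against 0.98 for Cd38. Art2b was closest to Egr1 (0.68), Parp12 (0.69) and Hlcs (0.80), against 1.66 for Art2b. Ampd1 was closest to Igfbp4 (0.56), Actn1 (0.81) and Lef1 (0.88), against 2.87 for Ampd1, and Nt5e to Ripk3 (0.11), Rbpms (0.12) and Phlpp2 (0.12), against 0.39 for Nt5e.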

How the data were processed

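RNA of 4 groups of splenic CD4 T cells was hybridised to 11 single-colour arrays. The authors deposited log2 values made with RMA, per the submitters' processing notes, in which the 3 WT naive arrays average 0 for each probe set. The sources used here do not state the base of the logarithm, and base 2 follows RMA's convention. Values hold no brightness, so a gene's distance from background is unknown. A deposited table of 27800 genes on the same log2 scale, quantile normalized by its name, paired probe sets with genes and served as an alternative. Probe sets of 1 gene were kept (37504), and the probe sets of each of 20404 genes were averaged. Symbols of 17879 genes were taken from RefSeq.

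The limma package (version 3.58.1, R 4.3.3) fitted 4 group means to the 11 arrays by lmFit and eBayes. In each contrast Benjamini-Hochberg adjustment covered every gene tested. Standard errors and 95% intervals are limma's, and precision is limited by the number of arrays. Tables and figures were made in Python 3.11.15 with numpy 2.4.6, pandas 2.3.3 and matplotlib 3.10.9. The fit was tested on simulated data with 200 changed genes. The 10 genes, the pathway and marker lists and the tests were chosen with earlier results of these data known. Of each pathway list, up to 4 called genes of greatest log2 difference per contrast were eligible to be named, besides the 10 genes, Art2a and the 3 most alike genes of each called member. Slc29a1 and the named marker genes were named outside that rule after their values were seen. Motif matches were searched on both strands of RefSeq windows. Of the pathway genes eligible to be named, 1 is not reported here.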

Additional observations from a re-analysis of the deposited data

How the results depend on the processing

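Of 590 values of the 10 genes under other settings, 562 kept their side of the threshold, 22 lost a call, 6 gained one and 0 called values reversed, and of 550 values without 1 array, 531, 17, 2 and 0 did so. Most of these values had no call to lose. The main fit called 6 of the 10 genes in WM IMP against MW naive, 5 in WT IMP against WT naive and 3 in MW naive against WT naive. It called 0 in WM IMP against WT IMP and in the interaction. Stricter thresholds reuse the main differences and can only end a call. Among the values that kept their side, 39 that were called in neither fit changed sign. The settings were a replicate block, array weights, the probe set with the greatest SD, the deposited gene table, centred arrays, robust eBayes, poly-A control level as a block, the 7 arrays with low poly-A controls, the Gapdh 5′ minus 3′ difference as a covariate, the 2 groups alone and stricter thresholds. Each probe set by itself gave counts of called genes only and is not among the 590 values. The 2 groups alone give no value for the interaction. The cause of these changes was not tested.

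The numbers of genes called moved more. Without 1 array they ranged from 1812 to 2879 in WM IMP against MW naive, from 702 to 2067 in WT IMP against WT naive, from 123 to 1017 in MW naive against WT naive, from 14 to 929 in WM IMP against WT IMP and from 4 to 63 in the interaction, and the called members ranged from 4 to 7, 2 to 5, 2 to 3 and 0 to 1, and were 0 in the interaction. In that same order of comparisons, an adjusted p under 0.01 left 1414, 821, 108, 31 and 6 genes, and a change of at least 2-fold left 1151, 937, 231 and 160 in the comparisons before the interaction. The 7 arrays with low poly-A controls gave 1160, 478, 15, 9 and 1 genes, with 3 members called in WT IMP against WT naive and 0 in MW naive against WT naive. With the Gapdh covariate, 1020 genes were called in WT IMP against WT naive, 14 in MW naive against WT naive, with 0 members, and 4 in the interaction. Array weights gave 3052 genes in WT IMP against WT naive, 2048 in MW naive against WT naive, 453 in WM IMP against WT IMP and 58 in the interaction. The 2 groups alone gave 1530 genes in WM IMP against MW naive, 929 in MW naive against WT naive and 8 in WM IMP against WT IMP. The probe set with the greatest SD gave 977 in MW naive against WT naive and 538 in WM IMP against WT IMP, and each probe set by itself gave 1159, 719 and, in the interaction, 19. The deposited gene table gave 24 in the interaction, and the poly-A block called 1 member there, Ampd1.

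Replicate numbers were checked for a pairing of the arrays. Deviations of same-numbered arrays from their group means correlated at -0.283 to 0.188 over 15 pairs (median -0.020), against -0.258 to 0.258 over 30 pairs with different numbers (median 0.008). Deviations cancel within a group, and those of the 2 WT IMP arrays mirror each other, so this check cannot exclude pairing. With the replicate block, 299 genes were called in MW naive against WT naive, 101 in WM IMP against WT IMP and 7 in the interaction. Among the 10 genes the block ended 2 calls, Nt5e in WM IMP against MW naive (adjusted p = 0.068) and P2rx7 in MW naive against WT naive (adjusted p = 0.0505), and no other.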
